A study of Homo sapiens with 74 samples.

Results

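The HOX genes are the homeobox genes of the HOXA, HOXB, HOXC and HOXD clusters, and peaks of V5-tagged zinc-finger proteins (ZFPs) at these genes are described here. The members were the protein-coding hg38 genes whose symbol is HOXA, HOXB, HOXC or HOXD followed by a digit, which gave 39 of 20046 protein-coding genes in the GENCODE 44 annotation. A peak was counted at a HOX gene when it overlapped the gene body or lay within 5 kb of it. By this rule 157 of 92122 peaks were at a HOX gene, which is 0.17% of all peaks.

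HOX proteins are homeodomain transcription factors that give cells their position along the body axis. Within each cluster the genes lie in the order in which they act, with low paralog numbers toward the head and high numbers toward the tail. Polycomb complexes keep HOX genes silent where they are not used and Trithorax complexes keep them active where they are, and CTCF, a ZFP that binds insulators and anchors chromatin loops with cohesin, marks boundaries within the clusters.

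The peaks came from Cut&Run, an assay in which an antibody brings a nuclease to the chromatin sites of a protein. HEK293T, an established line of human embryonic kidney cells, was transfected with a plasmid carrying the ORF of a single ZFP with a C-terminal V5 tag under the EF1-alpha promoter, and 48 h later the chromatin was probed, without crosslinking, by a V5 antibody. Peaks had been called for each library against un-transfected cells put through the same V5 immunoprecipitation (mock IP), of which 2 samples are labelled, so lists shared controls. There were 36 ZFPs with 2 replicates each, 1 well per replicate, which gave 72 peak lists, all from a single cell line. The tagged proteins were overexpressed, endogenous CTCF was present in all cells, and no HOX gene was among the transfected ORFs.

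The lists held 15 to 8702 peaks with a median of 631. The length of a list was the only measure of yield used, as the depth of single libraries was unknown. No 2 lists were identical. A peak over an exon of the transfected gene itself, which marks the plasmid, was present in both replicates of 32 of 36 ZFPs and of 14 of the 16 ZFPs with HOX peaks. The exceptions among those 16 were the replicate 2 library labelled TRIM55 and both libraries labelled ZMAT5. These counts include the replicate 2 library labelled ZC3H3, where this peak had a fold of only 3.99, within the range of HOX peaks, while it was at least 97.5 in every other library that had one. That library had no HOX peak. TRIM55 and ZMAT5 had 2 HOX peaks each, all in replicate 2, and without them the number of HOX genes with a peak was still 34 and the share of HOX peaks at promoters still 73.2%.

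Peaks were found at 34 of the 39 HOX genes (87.2%) when all lists were joined, against 70.1% of all protein-coding genes. In replicate 1 alone 33 HOX genes had a peak, which was 84.6% against 62.5% of all protein-coding genes. In replicate 2 alone 31 had one, which was 79.5% against 52.2%. The share of HOX genes was therefore above that of all genes in each replicate. A peak within 1 kb of a transcription start site (TSS) of the gene was found for 30 HOX genes (76.9%), against 55.8% of all genes. The median HOX gene had peaks of 5 ZFPs and the median protein-coding gene of 2, although the median HOX gene was 4216 bp long and the median protein-coding gene 27424 bp.

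HOX genes lie close together, so a single peak often counted for several of them. Of the 157 peaks, 115 were within 5 kb of 2 or more HOX genes and 42 of 1 gene, which made 322 pairs of peak and gene. Counts of genes are thus not independent of each other. Counted over the union of the gene windows, there were 333 peaks per Mb at HOX genes and 42.7 per Mb at all protein-coding genes, a ratio of 7.79. The ratio was 7.91 in replicate 1 and 7.56 in replicate 2. The HOX windows, 471.8 kb in all, held more TSSs, since 30.2% of their length and 8.87% of the length of all windows was within 1 kb of a TSS. Within this distance of a TSS there were 808 peaks per Mb at HOX genes and 340 at all genes, a ratio of 2.37.

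The replicates seldom placed a peak at the same HOX site. The same ZFP had a peak in both replicates at 19 HOX genes (48.7%), against 25.1% of all protein-coding genes. Peaks of both replicates that overlapped each other by at least 1 bp were found at 7 HOX genes (17.9%), against 18.4% of all genes. The share of HOX genes was thus not higher than that of all genes for peaks that overlapped between replicates. Per length of window, such peaks were still denser at HOX genes, with 17 per Mb against 7.9 at all genes, a ratio of 2.15. Of the 157 HOX peaks, 8 overlapped a peak of the other replicate (5.1%, exact 95% interval 2.23 to 9.79). Of the other gene-near peaks in the same lists, weighted to the same mix of lists, 18.2% did so. Among promoter peaks with a fold no higher than the highest at a HOX gene this share was 18.9%. The 8 HOX peaks were 4 pairs, each counted from both sides, so their interval is too narrow. Intervals here and in what follows cover counting error only, with peaks taken as independent.

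The 8 overlapping peaks made up 4 sites, 2 of CTCF and 1 each of GIN1 and APEX2. CTCF had folds over mock IP of 6.11 in replicate 1 and 7.07 in replicate 2 in the body of HOXB6, at chr17:48602494-48602982. CTCF had folds of 4.67 and 4.4 over the coding sequence of HOXA4, at chr7:27130190-27130429. GIN1, a protein related to retrotransposon integrases, had folds of 4.51 and 5.58 at the promoter of HOXB4, a gene known for its role in blood stem cells. APEX2, an endonuclease of DNA repair, had folds of 5.44 and 5.73 at the promoter of HOXD8. CTCF thus had 4 of these 8 peaks, at 2 sites, while it had 17 of all 157 HOX peaks (10.8%) and 6.49% of the peaks near any protein-coding gene. Of the peaks near any protein-coding gene that overlapped between replicates, CTCF had 1261 of 11261. Within CTCF, 4 of the 17 HOX peaks overlapped, against 31.9% of its peaks near any protein-coding gene, so its HOX peaks did not stand out in this.

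**Figure D1:**
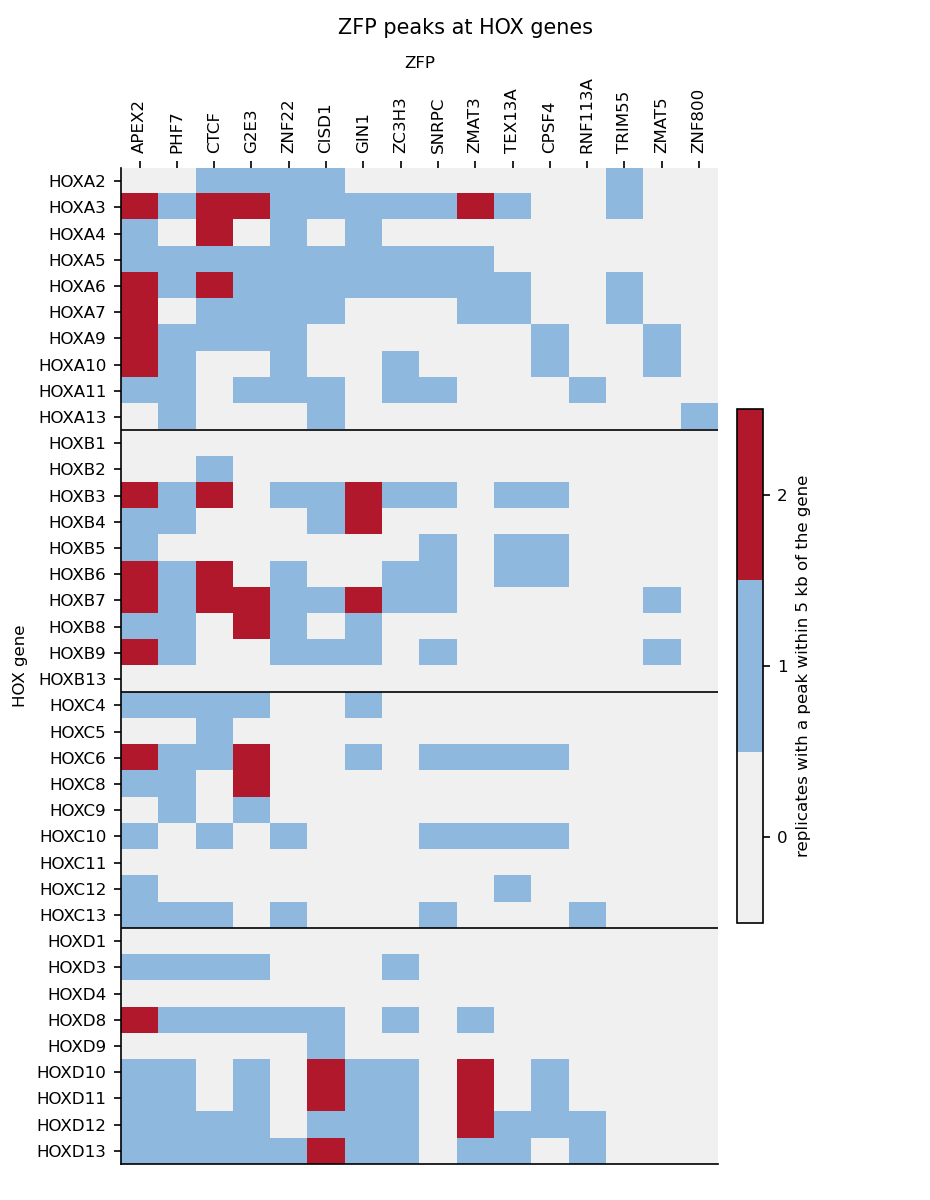
HOX genes (rows, by cluster, 38 of the 39) against the 16 ZFPs with a HOX peak (columns, ordered by the number of HOX genes reached); the colour gives in how many of the 2 replicates the ZFP had a peak within 5 kb of the gene. HOXA3 and HOXA6 were reached by 12 ZFPs each, and HOXB1, HOXB13, HOXC11, HOXD1 and HOXD4 by none.

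The sequences of 4 CTCF regions are shown because these were the CTCF regions at HOX genes with a match of at most 1 mismatch to the core of the CTCF motif. The core has 12 positions, of which 4 allow more than 1 base, and was searched on both strands in a window of 201 bp around each summit. Each sequence is from hg38, reads 5′ to 3′ on the minus strand, and carries the match in capitals with 40 bases on each side. The match between HOXA7 and HOXA9 (chr7:27161098-27161189) had 0 mismatches and lay 48 bases from the summit, just outside the called peak. The match between HOXD12 and HOXD13 (chr2:176097719-176097810) lay 25 bases from the summit, that in HOXA4 (chr7:27130184-27130275) 4 bases and that upstream of HOXA5 (chr7:27143876-27143967) 88 bases, each with 1 mismatch. A match is a description of the letters and not a measured binding site.
HOXA7-HOXA9: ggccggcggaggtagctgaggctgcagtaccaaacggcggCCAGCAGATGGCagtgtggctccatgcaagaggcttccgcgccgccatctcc
HOXD12-HOXD13: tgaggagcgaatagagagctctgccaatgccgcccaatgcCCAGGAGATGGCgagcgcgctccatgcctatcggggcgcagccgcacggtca
HOXA4: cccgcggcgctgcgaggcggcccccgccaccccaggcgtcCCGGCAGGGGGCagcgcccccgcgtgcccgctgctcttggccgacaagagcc
HOXA5: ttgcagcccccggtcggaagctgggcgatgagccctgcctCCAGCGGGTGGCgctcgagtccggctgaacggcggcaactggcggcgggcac

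By ZFP, CTCF was among those with the most HOX peaks relative to the length of its lists. CTCF replicate 1 had 10 HOX peaks of 3198 (3.13 per 1000, exact 95% interval 1.5 to 5.74) and replicate 2 had 7 of 1740 (4.02 per 1000, 1.62 to 8.27). The mean was 3.57 ± 0.634 per 1000 (SD, n = 2), and over all lists there were 1.7 HOX peaks per 1000. CTCF ranked 4 of the 16 ZFPs with a HOX peak. Of the 20 without one, 9 had joined lists so short that 0 peaks allows a rate above that of CTCF, so they cannot be placed below it. The means were 4.38 ± 1.59 for ZMAT3, 3.64 ± 2.91 for APEX2 and 3.63 ± 0.643 for SNRPC (SD, n = 2 each). CTCF differed from each of these 3 ZFPs by less than the SD of that ZFP, so their order is not set by these replicates.

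CTCF reached 21 HOX genes in either replicate (53.8%), against 19.7% of all protein-coding genes. In both replicates it reached 6 (15.4%), against 5.77% of all genes. These were HOXA3, HOXA4, HOXA6, HOXB3, HOXB6 and HOXB7. In HOXA3, HOXA4, HOXB3, HOXB6 and HOXB7 the replicates met at the HOXA4 or the HOXB6 site, and at HOXA6 they did so at different places. Only these 2 CTCF regions of 15 were called in both replicates.

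Among the CTCF regions called in a single replicate, the highest fold was 8.93 in the body of HOXD3, at chr2:176140546-176141271, in replicate 1. The next highest were 7.23 between HOXA7 and HOXA9 and 6.37 between HOXD12 and HOXD13, also in replicate 1. Both lie between genes, and these were the only 2 intergenic CTCF peaks of the 17. The highest fold of replicate 2 alone was 5.46, over the coding sequence of HOXB2, a gene of hindbrain patterning. HOXB2 and HOXC5 had no peak of any other ZFP. The CTCF peak near HOXC5 had a fold of 4.27 in replicate 1. Of the 15 CTCF regions, 9 also held a peak of another ZFP and 6 did not.

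The CTCF core motif with at most 1 mismatch was found in 5 of the 17 CTCF peaks at HOX genes (29.4%, exact 95% interval 10.3 to 56). These were 3 of 10 peaks in replicate 1 and 2 of 7 in replicate 2. It was found in 4 of 140 HOX peaks of the other ZFPs (2.86%, 0.784 to 7.15), an interval that does not overlap that of CTCF. However, the HOXA4 site counts for both CTCF replicates. By region, the motif was found in 4 of 15 CTCF regions (26.7%, 7.79 to 55.1). It was found in 4 of 84 regions with a peak of another ZFP (4.76%, 1.31 to 11.7), and these intervals overlap. The 9 regions with peaks of both CTCF and another ZFP count in both sets, so this overlap does not compare separate regions. At all protein-coding genes the shares were 13% of CTCF peaks and 3.33% of peaks of other ZFPs, so the interval of the CTCF share at HOX genes includes the share at all genes. Of the 4 motif-bearing peaks of other ZFPs, 3 lay in regions that CTCF shared. These were the APEX2 peak between HOXA7 and HOXA9, the APEX2 peak upstream of HOXA5 and the TEX13A peak between HOXD12 and HOXD13. The HOXB6 site, which CTCF had in both replicates, held no match within 1 mismatch. Of 27 promoters of 20 HOX genes in the RefSeq table (300 bases each), 1 held the motif (3.7%), against 5.28% of the 21613 promoters of protein-coding genes in it.

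**Figure D2:**
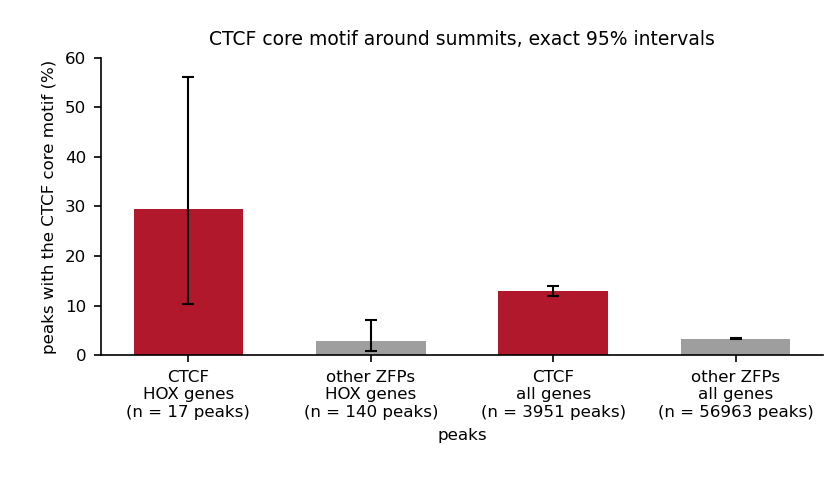
Share of peaks (vertical axis, percent) with the CTCF core motif at up to 1 mismatch within 100 bp of the summit, for CTCF and for the other 35 ZFPs at HOX genes and at all protein-coding genes; error bars are exact 95% intervals. CTCF peaks at HOX genes, 2 of which are the same HOXA4 site, stand at 29.4% and those of other ZFPs at 2.86%.

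APEX2 reached the most HOX genes, 27 in either replicate (69.2%), against 35.2% of all protein-coding genes. Its replicates differed at HOX genes. Replicate 1 had 9 HOX peaks of 5692 (1.58 per 1000, 0.723 to 3) and replicate 2 had 24 of 4218 (5.69 per 1000, 3.65 to 8.45), so the shorter list had more HOX peaks and the intervals did not overlap. Both replicates had a peak at 11 HOX genes, but only the HOXD8 site was called in both.

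PHF7, a PHD-finger protein known as a histone ubiquitin ligase, reached 24 HOX genes (61.5%), against 30.4% of all genes, all in replicate 1. PHF7 replicate 1 had 21 HOX peaks of 6284 (3.34 per 1000, 2.07 to 5.1). Replicate 2 had 0 of 729, which allows up to 4.12 per 1000. The short replicate 2 list therefore could not show a rate as low as that of replicate 1.

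G2E3, another ubiquitin ligase, reached 20 HOX genes (51.3%), against 29.9% of all genes, with 7 HOX peaks of 3482 in replicate 1 and 7 of 4159 in replicate 2. None of the 14 peaks overlapped between the replicates. ZNF22 reached 19 HOX genes (48.7%), against 33.2% of all genes, with 12 HOX peaks of 6125 and 2 of 1836. CISD1, known as an iron-sulfur protein of the mitochondrial outer membrane, had the longest lists and reached 17 (43.6%), against 37.9%. CISD1 had 11 HOX peaks of 8702 in replicate 1 and 2 of 2633 in replicate 2. GIN1 reached 15 (38.5%), against 20.1%, with 7 HOX peaks of 3063 and 2 of 2060. With both replicates joined, the share of HOX genes was above that of all genes for each of these 7 ZFPs, by the least for CISD1. These ZFPs are the ones that reached the most HOX genes, so they were picked on the count compared here. The 20 ZFPs without a HOX peak were below all genes and are left out of this comparison.

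This did not hold for all of them in single replicates or in both. In replicate 2 alone, HOX genes were below all genes for CISD1 (3 genes, 7.69% against 11.4%), ZNF22 (2 genes, 5.13% against 9.4%) and PHF7 (0 genes against 2.62%), and in the other lists of the 7 ZFPs they were above. With a peak required in both replicates, HOX genes were below all genes for CISD1 (3 genes, 7.69% against 8.45%), ZNF22 (0 against 7.04%) and PHF7 (0 against 1.79%). They were above for APEX2 (11 genes, 28.2% against 12.5%), G2E3 (5 genes, 12.8% against 8.37%) and GIN1 (3 genes, 7.69% against 4.2%), as they were for CTCF.

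**Figure D3:**
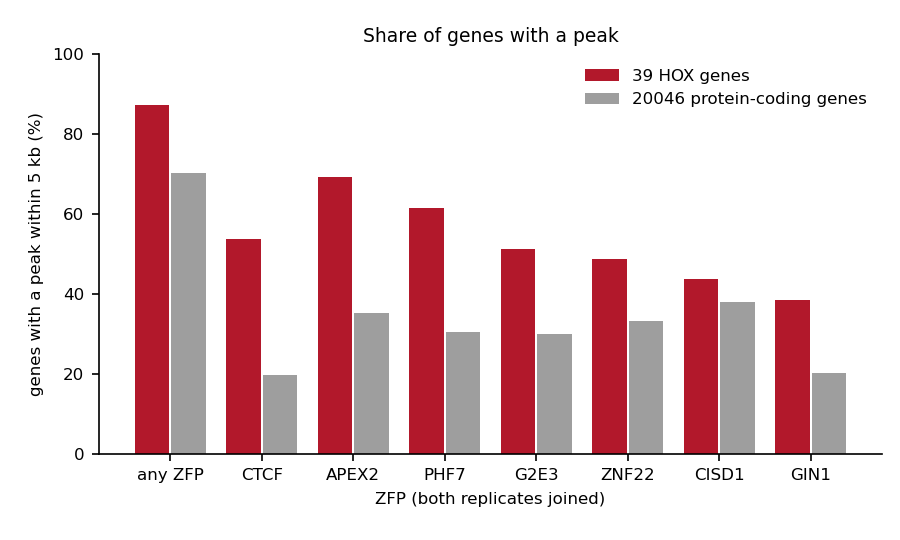
Share of genes with a peak within 5 kb (vertical axis, percent), with both replicates joined, for the 39 HOX genes (red) and all 20046 protein-coding genes (grey), for any ZFP and for the 7 ZFPs that reached the most HOX genes. With the replicates joined, the HOX share is the higher of each pair, from 53.8% against 19.7% for CTCF to 43.6% against 37.9% for CISD1. The ZFPs shown were picked on this HOX count.

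These 7 ZFPs held 121 of the 157 HOX peaks (77.1%). They were also the 7 ZFPs with over 4000 peaks in their joined lists. Other ZFPs with HOX peaks had 1 to 7 of them. ZMAT3, an RNA-binding protein under p53 control, had 4 in replicate 1 and 3 in replicate 2. SNRPC, a part of the U1 splicing particle, had 4 and 2. ZC3H3, TEX13A, CPSF4 and RNF113A had 6, 5, 4 and 3 HOX peaks, all in replicate 1, and ZNF800 had 1, in replicate 2. The replicate 2 list of ZC3H3 held only 15 peaks.

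The 20 ZFPs without a HOX peak had 374 to 1915 peaks in their joined lists, while the 16 with HOX peaks had 1330 to 11335. For the longest joined list without a HOX peak, that of ZNF593, 0 peaks allows up to 1.57 per 1000, and for the shortest it allows up to 8.02. A HOX share as high as the 1.7 per 1000 of all lists was thus not detectable in most of these ZFPs.

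**Figure D4:**
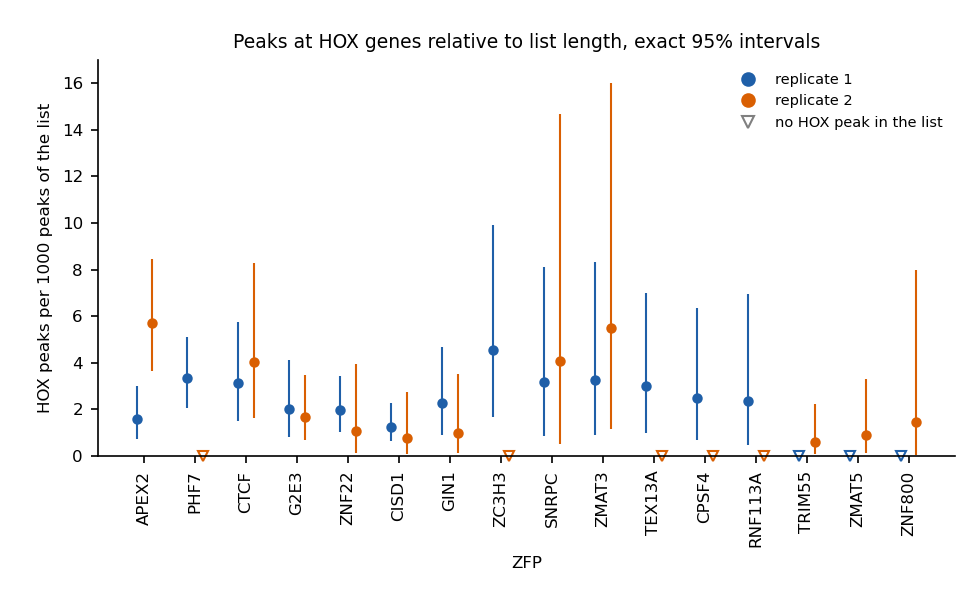
HOX peaks per 1000 peaks of the list (vertical axis) for the 16 ZFPs with a HOX peak, with replicate 1 in blue and replicate 2 in orange; bars are exact 95% intervals and open triangles mark lists without a HOX peak. CTCF stands at 3.13 and 4.02, and the APEX2 replicates, at 1.58 and 5.69, have intervals that do not overlap.

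The 157 peaks merged into 90 regions, of which 62 (68.9%) were called for 1 ZFP, 15 (16.7%) for 3 or more and 5 (5.56%) for 5 or more. At all protein-coding genes, 69.1% of the regions were called for 1 ZFP, 19.5% for 3 or more and 9.66% for 5 or more, and the most shared region was called for 36 ZFPs. The lists are not independent of each other, because they shared mock IP controls, and the part of this in shared regions was not tested. The share called for 1 ZFP was nearly the same at HOX genes as at all genes, and no HOX region was called for more than 8 ZFPs.

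The region shared by the most ZFPs lay within the annotated body of HOXD11, a gene known for its role in limb and kidney development, at chr2:176105436-176106694. It was called for 8 ZFPs in 9 lists. The folds in replicate 1 were 7.58 for CISD1, 6.52 for CPSF4, 6.43 for PHF7, 5.68 for GIN1, 5.44 for ZMAT3, 4.51 for G2E3 and 4.48 for ZC3H3. The folds in replicate 2 were 6.55 for APEX2 and 5.02 for ZMAT3. CTCF had no peak there. ZMAT3 was called in both replicates, but its 2 peaks did not overlap each other. The hg38 sequence of 201 bases around the median summit of this region (chr2:176105857-176106057, plus strand) is shown because no other HOX region was called for as many ZFPs. Capitals mark its 9 CG dinucleotides. It lies outside annotated exons and is 61.7% GC.
HOXD11: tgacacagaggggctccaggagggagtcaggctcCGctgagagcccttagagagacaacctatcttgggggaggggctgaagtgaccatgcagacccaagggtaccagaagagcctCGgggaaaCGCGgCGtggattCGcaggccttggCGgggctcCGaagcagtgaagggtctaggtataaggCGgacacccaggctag

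The next most shared region lay between HOXD12 and HOXD13, which act in the forming limb and urogenital tract, at chr2:176097401-176097849, and holds the CTCF motif match shown for these genes. It was called for 6 ZFPs, with folds of 6.37 for CTCF, 4.86 for PHF7, 4.82 for RNF113A, 4.4 for CISD1 and 4.33 for TEX13A in replicate 1 and 4.87 for APEX2 in replicate 2. CTCF had the highest fold there. At HOXD8, 5 ZFPs shared the region over a TSS and coding sequence at chr2:176130198-176130769, with folds from 4.63 for ZNF22 to 5.73 for APEX2 replicate 2, and 4.81 for CTCF replicate 1. At HOXC13, a gene of hair and nail formation, 5 ZFPs shared the promoter at chr12:53938465-53939587, with folds from 3.89 for APEX2 to 7.81 for RNF113A, and 4.9 for CTCF replicate 2.

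The promoter of HOXA11, a paralog of HOXD11, was called for 5 ZFPs at chr7:27185483-27186041, with folds from 3.5 for G2E3 to 6.33 for CISD1 and no CTCF. The HOXB9 promoter at chr17:48626342-48626934 was called for ZNF22 (7.56), CISD1 (7.44), GIN1 (5.46) and APEX2 (5.05), all in replicate 1. The promoter of HOXA5, a gene of lung development, was called for 4 ZFPs at chr7:27143694-27144307, with folds from 3.96 for ZNF22 to 6.23 for APEX2, and 4.43 for CTCF replicate 2. A region at the start of HOXC4 (chr12:54017500-54018181) was called for 4 ZFPs, with folds from 4 for GIN1 to 5.81 for G2E3. In all, 5 regions were called for 4 ZFPs, and the 2 not described, at HOXD13 and HOXA5, had a lower highest fold and no CTCF peak. Of the 10 regions called for 4 or more ZFPs, 4 thus included CTCF, and in each of these the CTCF peak was in 1 replicate.

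The 4 clusters differed in the density of peaks. HOXA had 61 peaks (38 in replicate 1 and 23 in replicate 2), or 521 per Mb of gene windows, and all 11 of its genes had a peak. HOXD had 36 (28 and 8), or 351 per Mb, at 7 of 9 genes. HOXB had 36 (23 and 13), or 279 per Mb, at 8 of 10 genes. HOXC had 24 (14 and 10), or 195 per Mb, at 8 of 9 genes. HOXA was the highest and HOXC the lowest in this density over both replicates together, and in replicate 2 alone HOXD had the fewest peaks. CTCF had 7 peaks in HOXA, 4 in HOXB and 3 each in HOXC and HOXD.

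**Figure D5:**
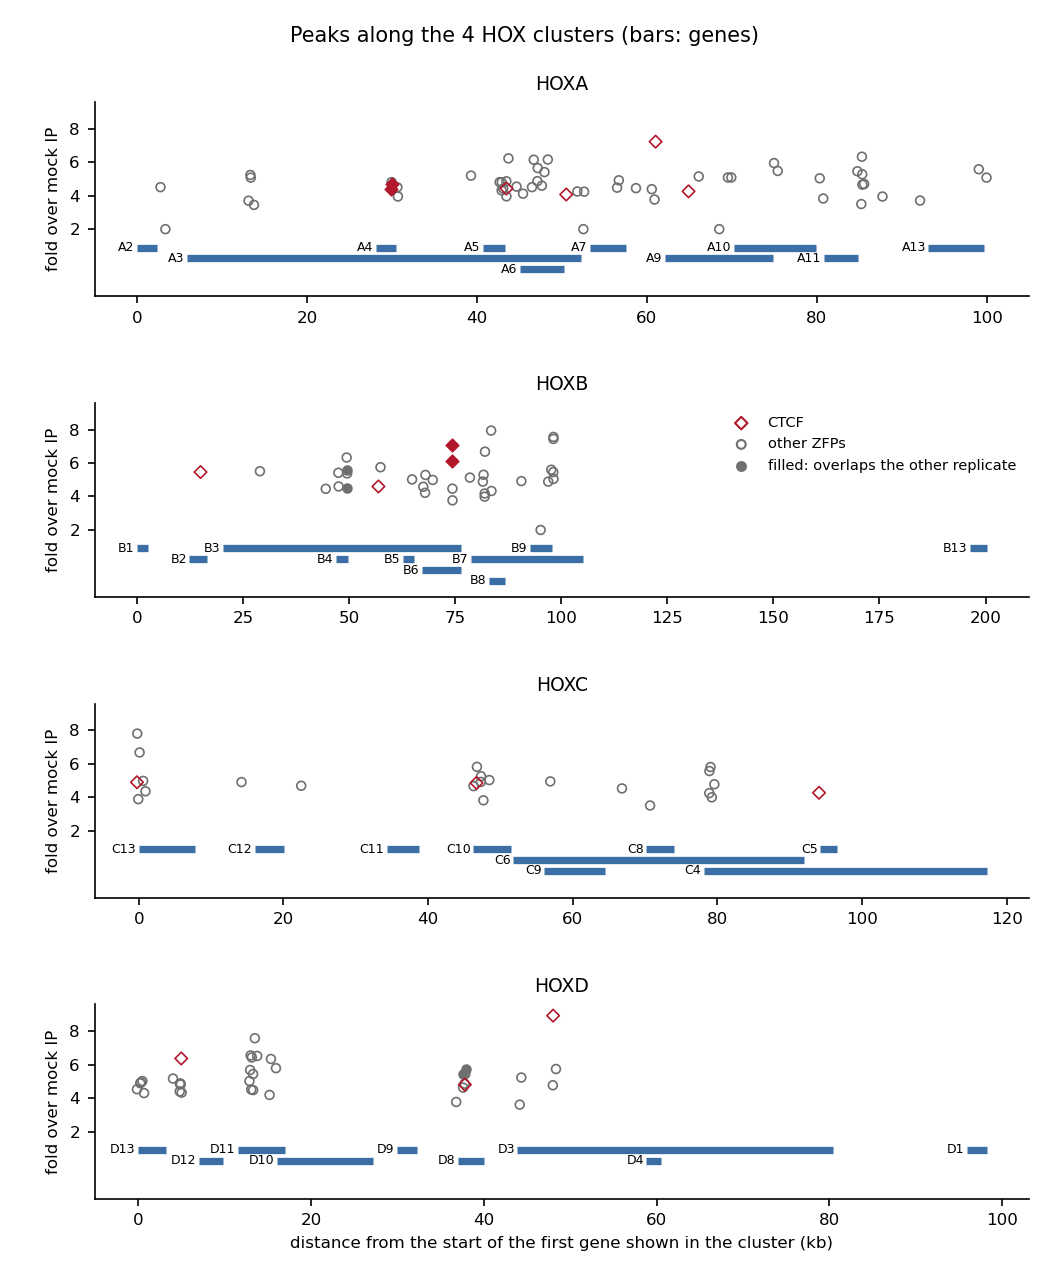
Fold over mock IP (vertical axis) of the HOX peaks nearest to 38 of the 39 genes against distance in kb from the start of the first gene shown in each cluster (horizontal axis), with CTCF as red diamonds, other ZFPs as grey circles and filled symbols for peaks that overlap one of the same ZFP in the other replicate; blue bars are genes. The 8 filled symbols lie at HOXA4, HOXB4, HOXB6 and HOXD8, and the highest point is CTCF in HOXD3 at 8.93.

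Along the axis, the anterior genes (paralog groups 1 to 4) had a peak at 9 of 12 genes, the middle genes (groups 5 to 8) at 11 of 11 and the posterior genes (groups 9 to 13) at 14 of 16. With each peak given to its nearest TSS, this was 3.25 peaks per gene in the anterior groups, 4.73 in the middle and 4.12 in the posterior. The middle genes thus stood highest both in the share of genes with a peak and in peaks per gene.

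The 5 genes without a peak lay well away from the nearest one. The nearest peak was 7373 bp from HOXC11 (ZNF22), 10279 bp from HOXD4 (PHF7), 11690 bp from HOXB13 (APEX2), 12363 bp from HOXB1 (CTCF) and 47397 bp from HOXD1 (PHF7). HOXB13, a gene known from the prostate, stands apart from the rest of its cluster. HOXD9 had 1 peak, of CISD1, at 4438 bp. The 5 kb limit itself did not select among peaks. Of all peaks counted, the farthest from its closest HOX gene was that of SNRPC replicate 1 at 2755 bp from HOXA11, and the nearest peak not counted was that of APEX2 replicate 2 at 11690 bp from HOXB13.

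HOXA3 and HOXA6 were reached by 12 ZFPs each, HOXD12 and HOXD13 by 11 and HOXA5, HOXB3 and HOXB7 by 10. HOXA3 and HOXB3 are long annotated genes that contain their neighbours, so part of their counts was shared. HOXA3, a gene of thymus and parathyroid formation, had 35 peaks within 5 kb, of which 8 lay nearest to a HOXA3 TSS. The 4 ZFPs in both replicates at HOXA3 were APEX2, CTCF, G2E3 and ZMAT3, and at HOXB7 they were APEX2, CTCF, G2E3 and GIN1. At HOXB3 they were APEX2, CTCF and GIN1.

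Fewer ZFPs reached the other genes in both replicates. APEX2 did so at HOXA6, HOXA7, HOXA9, HOXA10, HOXB6, HOXB9, HOXC6 and HOXD8. HOXA9 and HOXA10 are known from leukaemia. G2E3 did so at HOXB8, HOXC6 and HOXC8 and GIN1 at HOXB4. CTCF did so at HOXA4, HOXA6 and HOXB6. CISD1 did so at HOXD10, HOXD11 and HOXD13, and ZMAT3 at HOXD10, HOXD11 and HOXD12. CISD1 thus reached genes in both replicates in HOXD alone, and ZMAT3 in HOXD and at HOXA3.

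Most HOX peaks were at promoters. Of 157 peaks, 115 were within 1 kb of a TSS (73.2%, exact 95% interval 65.6 to 80), with 74 of 103 in replicate 1 (71.8%) and 41 of 54 in replicate 2 (75.9%). A further 24 (15.3%) were in a gene body away from a TSS and 18 (11.5%, 6.94 to 17.5) were intergenic. Intergenic meant outside the bodies of protein-coding genes and over 1 kb from their TSSs, so such peaks could lie in non-coding genes. For the same ZFPs at all protein-coding genes the shares were 73.2% at promoters, 22.3% in gene bodies and 4.5% intergenic. The promoter share of HOX peaks was therefore that of other genes, while the intergenic share was higher. Of the 18 intergenic peaks, 6 were in 1 region, between HOXD12 and HOXD13. The interval of this share treats such peaks as independent, which they are not. The windows also differed. Within 1 kb of a TSS lay 30.2% of the length of HOX windows and 8.87% of that of all windows, and HOX genes were shorter. The part of this in the shares was not tested. The median distance to a HOX TSS was 367 bp, and 16 peaks covered a TSS. On exons lay 62 HOX peaks (39.5%, 31.8 to 47.6), against 60.6% for the same ZFPs at all genes.

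The places of CTCF and of the other ZFPs had overlapping intervals at HOX genes. Of the 17 CTCF peaks, 11 were at promoters (64.7%, 38.3 to 85.8), 4 in gene bodies and 2 intergenic. Of the 140 peaks of other ZFPs, 104 were at promoters (74.3%, 66.2 to 81.3). By cluster, the share at promoters was 83.6% in HOXA, 79.2% in HOXC, 72.2% in HOXB and 52.8% in HOXD. Every peak of a shared region counts in these shares. In HOXD, most peaks away from promoters lay in the region at HOXD11 and the one between HOXD12 and HOXD13. These were the regions called for the most ZFPs, 8 and 6.

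HOX peaks were not high ones. Their folds ran from 2 to 8.93 with a median of 4.87, and the median of other gene-near peaks in the same lists was 4.91. For CTCF the median was 4.81 at HOX genes and 5.44 elsewhere. The lowest folds at HOX genes, 2, were those of the replicate 2 libraries labelled TRIM55 and ZMAT5. The sequence around HOX peaks had a median GC of 64.2%, against 67.2% at other genes, and a ratio of observed to expected CG dinucleotides of 0.701, against 0.774. At promoters alone the median GC was 65.7% at HOX genes and 69.7% elsewhere. GC was lower at HOX genes than at other genes for APEX2, PHF7, G2E3, ZNF22 and CISD1, equal for CTCF (66.7% in both) and higher for GIN1 (69.2% against 67.7%).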

How the data were processed

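Peak lists of Cut&Run for 36 V5-tagged ZFPs in HEK293T cells, 2 replicates each, were used. The mock IP samples were not analysed here. Per the labels and methods, the authors trimmed reads with Trimmomatic 0.36, aligned them to hg38 with Bowtie2 2.3.5.1, removed duplicates with Picard and called peaks per library over mock IP with MACS2 2.2.7.1 at an FDR of 0.05. The deposited fold is the ratio of library to control signal at the summit. The deposited −log10 p and −log10 q values and the score are also the caller's, and folds were not compared across lists by any test.

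Genes and TSSs were those of GENCODE 44. Peaks within 5 kb of a gene body were assigned to every such gene, a promoter was within 1 kb of a TSS of a protein-coding gene, and overlaps needed 1 bp. A HOX gene was named when any ZFP reached it in both replicates, and by count or name otherwise. The values of 1 HOX gene are not reported here and enter only the totals. Regions were named when among the 8 shared by the most ZFPs, with ties set by lists and then by the highest fold. Of the 5 CTCF regions planned by the lower fold of 2 replicates, only 2 had both, and the others were named by their single fold. HOX members and gene lists were chosen with earlier results of these data known. Shares carry exact 95% binomial intervals, and a count of 0 a limit of 3 counts. No significance test was made, because a test over the members was not independent of their choice and each ZFP had 2 replicates. Replicates were separate wells, so their spread may be partly technical. Promoter sequences were from RefSeq (hg38), on primary chromosomes, where 20 of 39 HOX genes matched. Analyses used Python 3.11.15, pandas 2.3.3, scipy 1.17.1 and pysam 0.24.0. On simulated data, 2987 of 2987 overlaps matched bedtools 2.31.1, and 200 of 200 planted motifs were found. Alternatives were other windows, q-value and fold thresholds, summits, peaks of both replicates, promoter widths, TSS sets, the ZFPs the study lists with DNA targets, and each replicate left out.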

Additional observations from a re-analysis of the deposited data

How the results depend on the processing

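No paired analysis was possible because the reported values are counts and shares that come from no test. The 34 HOX genes with a peak were 27 to 35 under other windows, q-value and fold limits, 31 to 33 without either replicate, and 7 with peaks of both replicates only. The excess of the HOX share over that of all genes, 17 percentage points, was 6.5 in gene bodies only, 13.2 with a 1 kb window, 21.2 within 1 kb of a TSS and 22.1 to 27.3 without either replicate, and it turned to -0.424 with peaks of both replicates. The 6 HOX genes with CTCF in both replicates were 11 with a 10 kb window, 3 at q of at most 0.01, 3 at 0.001, 3 at a fold of at least 5 and 1 within 1 kb of a TSS. The 21 with CTCF in either were 10 in gene bodies only, 9 at q of at most 0.001, 9 at a fold of at least 5, 10 within 1 kb of a TSS and 12 to 15 without either replicate. The CTCF rate of 3.57 per 1000 was 2.69 in gene bodies, 2.04 at q of at most 0.001, 2.51 within 1 kb of a TSS and 2.41 with peaks of both replicates. Its rank of 4, among ZFPs with HOX peaks, was 2 with a 1 kb window, 3 at q of at most 0.01 or 0.001 and among ZFPs with listed DNA targets, 1 with peaks of both replicates, and 4 to 5 without either replicate. The promoter share of 73.2% was 77.8% at q of at most 0.001, 56.1% within 0.5 kb, 94.3% within 3 kb and 80.3% with TSSs of all annotated genes. Leaving out TRIM55 and ZMAT5 was chosen after seeing the data and moved neither value it was run for. The causes of these shifts were not tested. List length limits all rates: 48 of 72 lists had no HOX peak.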

Other observations

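Non-coding genes of the HOX clusters shared many of these peaks. A peak within 1 kb of a TSS was found for 20 of 28 lncRNA genes in the clusters, against 20.3% of all annotated lncRNA genes, for 2 of 8 miRNA genes, against 15.1%, and for 8 of 17 genes of the class misc_RNA, against 4.84%. These cluster genes lie close together and share peaks. HOXA-AS3 had 13 such peaks of 7 ZFPs, CTCF among them, HOXB-AS3 had 8 of 5 ZFPs, and HOXA11-AS, which is antisense to HOXA11, had 7 of 7 ZFPs. HOXC13-AS and HOXC-AS3 had 6 each, and HOTTIP, beside HOXA13, had 2. For most of these the coding neighbour's TSS lies within reach of the same peaks, so the genes cannot be told apart. For HOXB-AS3, 5 of the 8 peaks were not near a coding TSS. The miRNA genes were MIR196B, with APEX2 and ZMAT5, and MIR615, with CTCF.

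Genes that work with HOX proteins or regulate HOX clusters were counted in the same way. A peak was found at 8 of 9 TALE cofactors, which bind DNA with HOX proteins, and PBX3 was reached by 18 ZFPs. Among Polycomb genes it was 16 of 17, with PHC2 and JARID2 reached by 9 ZFPs each. Of the Trithorax and MLL complex genes, 10 of 11 had a peak, with KMT2C and KDM6B reached by 10 ZFPs each. Of the cohesin genes 8 of 9 had one, and STAG1 was reached by 12 ZFPs. The ParaHox and EVX genes, which are homeobox relatives of the HOX genes, stood lowest, with 4 of 8 and at most 4 ZFPs, at CDX2. The same ZFP was found in both replicates at 2 of the TALE, 8 of the Polycomb, 8 of the Trithorax, 4 of the cohesin and 0 of the ParaHox and EVX genes, and overlapping peaks of both replicates at 2, 6, 5, 4 and 0 of them. Of all protein-coding genes, 70.1% had a peak, 25.1% the same ZFP in both replicates and 18.4% overlapping peaks of both. The median gene of the TALE, Polycomb, Trithorax and cohesin lists was 140, 32.5, 38.6 and 155 kb long, against 7.14 kb for the ParaHox and EVX genes and 4.22 kb for HOX genes.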
